A study of Mus musculus with 6 samples.

Results

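The Dectin-1 and Dectin-2 myeloid lectins are cell-surface receptors of myeloid cells that bind sugars and glycolipids through a C-type lectin domain. The 8 genes described here, Clec4n, Clec4d, Clec4e, Clec4a1, Clec4a2, Clec4a3, Clec7a and Clec5a, were taken by symbol from the 37323 genes on the array, and 11 array probes belong to them. They were chosen with the contrast of C3aR-/- and WT diabetic renal cortex on these same arrays in view, so their values in it are given as a description, without a test. A probe counted as measured on an array where Feature Extraction, the scanner software, marked it well above background, and a gene was tested where this held on at least 3 of the 6 arrays. Of the 8 lectin genes 7 passed this filter, and Clec4a2 did not.

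The study asked how loss of the complement receptor C3aR, encoded by C3ar1, bears on gene expression in the diabetic mouse kidney. RNA of renal cortex was measured on 6 one-colour Agilent arrays, 3 from diabetic C3aR-/- mice and 3 from diabetic WT mice. All mice were labelled male and C57BL/6. From 8 weeks of age they had a diet with 60% of calories from fat, received streptozotocin, a toxin of pancreatic beta cells, at 60 mg/kg on 3 days after 4 weeks of that diet, and were killed 26 weeks after its injection. Both groups therefore carried the diet and the streptozotocin, and they differed by genotype. The labels do not describe the C3aR-/- allele or the deleted part of C3ar1. Nothing in the labels says that replicates came from separate mice, so the spread behind each p-value is that between these samples and may be technical.

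Dectin-1, the product of Clec7a, binds beta-glucans of fungal cell walls and signals through a tyrosine motif in its own tail. Dectin-2 (Clec4n), Mincle (Clec4e) and MCL (Clec4d) bind fungal mannans or mycobacterial glycolipids and signal through the Fc receptor gamma chain, and MDL-1 (Clec5a) signals through DAP12. Both routes recruit the kinase Syk, and from there the adaptor Card9 and NF-kappaB drive cytokine genes. The Clec4a genes encode the dendritic cell immunoreceptors, of which DCIR (Clec4a2) carries an inhibitory tyrosine motif. Such receptors are found on macrophages, monocytes, dendritic cells and neutrophils, which are minor cell populations in renal cortex.

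Promoter sequences are shown for 4 of the genes whose promoters hold the core letters of a myeloid transcription factor site. The promoters of Clec4a2 and of the earlier of the 2 Clec4a3 starts do not hold them. A link between these letters and the levels on the arrays was not tested. RefSeq promoters on GRCm38.p6, from 250 bases before to 50 after the gene start, were at hand for 7 of the 8 genes, with 9 promoters in all. Capitals mark GAGGAA, the core letters bound by the myeloid factor PU.1, on either strand, which in the printed strand reads either so or as TTCCTC. The intervals are chr6:122921598-122921897 on the plus strand for Clec4a1, chr6:122952394-122952693 on the plus strand for the later of the 2 Clec4a3 starts, chr6:123261857-123262156 on the plus strand for Clec4d and chr6:123289822-123290121 on the minus strand for Clec4e.
Clec4a1: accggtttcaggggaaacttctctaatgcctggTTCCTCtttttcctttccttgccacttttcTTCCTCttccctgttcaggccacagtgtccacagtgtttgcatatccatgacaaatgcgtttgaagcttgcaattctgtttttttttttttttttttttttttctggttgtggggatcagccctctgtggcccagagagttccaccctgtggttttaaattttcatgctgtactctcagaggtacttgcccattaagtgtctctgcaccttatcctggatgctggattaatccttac
Clec4a3: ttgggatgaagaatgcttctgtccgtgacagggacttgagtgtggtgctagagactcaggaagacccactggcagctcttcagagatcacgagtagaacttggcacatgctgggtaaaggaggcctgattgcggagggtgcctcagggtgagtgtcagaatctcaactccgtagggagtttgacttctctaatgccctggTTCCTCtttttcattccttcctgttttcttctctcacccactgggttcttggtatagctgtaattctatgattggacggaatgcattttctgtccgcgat
Clec4d: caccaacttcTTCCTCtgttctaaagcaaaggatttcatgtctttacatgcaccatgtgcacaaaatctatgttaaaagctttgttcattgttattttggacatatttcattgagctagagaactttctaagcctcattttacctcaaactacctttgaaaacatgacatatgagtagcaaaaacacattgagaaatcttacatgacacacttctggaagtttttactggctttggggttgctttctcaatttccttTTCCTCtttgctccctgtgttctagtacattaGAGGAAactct
Clec4e: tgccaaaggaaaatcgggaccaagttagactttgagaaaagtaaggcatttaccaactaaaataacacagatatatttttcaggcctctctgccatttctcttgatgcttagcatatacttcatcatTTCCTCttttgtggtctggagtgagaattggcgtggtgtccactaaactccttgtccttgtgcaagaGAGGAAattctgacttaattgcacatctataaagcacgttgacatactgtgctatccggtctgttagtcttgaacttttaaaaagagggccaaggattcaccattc
The PU.1 core occurred in 7 of the 9 promoters and in 6 of the 7 genes, all but Clec4a2. Of the 32851 RefSeq promoters 28.3% held it. The promoters of Clec7a overlap and hold the same match, and those of Clec4a3 overlap too. A gene was counted if any of its promoters held the core, whereas the share is per promoter. The Clec4d promoter held it 3 times and the promoters of Clec4a1, Clec4e and Clec5a 2 times each, and 4.82% of all promoters held it 2 or more times. The promoters of Clec4a1 and Clec4a3 shared the run cctggTTCCTCtttttc, which was in 2 promoters of the whole table. The AP-1 motif TGANTCA was in 1 of the 7 genes, Clec4a2, against 7.81% of all promoters. The TATA-box letters TATAAA were in 4 of the 7 genes, against 13.6% of all promoters. Their positions differed, with the first base at -29 from the gene start in Clec4e, -161 in Clec4a2 and -209 in Clec5a. In Clec7a it was at 43, after the start, and in 1 of its 2 promoters only. Both strands were searched, and no matches of different motifs overlapped in the lectin promoters. A match is a description of letters and does not show that a factor binds there.

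C3ar1, the targeted gene, was read first. Levels here are log2 of the processed signal minus the log2 of the array's 75th percentile, so negative values lie below that percentile, and levels of different probes are not compared. C3ar1 had levels of -4.10, -4.95 and -4.69 on the C3aR-/- arrays, against -2.96, -3.86 and -3.62 on the WT arrays. The C3aR-/- arrays all lay below the WT arrays, and the probe was well above background on 2 of the 3 C3aR-/- arrays and on all 3 WT arrays. The difference of C3aR-/- minus WT was -1.10 ± 0.30 (standard error from limma, n = 3 each), with an adjusted p of 0.931 in limma. Whether the probe lies inside the deleted part is not given, so the residual signal cannot settle the genotype. Macrophage markers also read lower in C3aR-/-, with a median difference of -0.57, and their part in the C3ar1 value was not tested. The direction of C3ar1 is that of the labels but cannot by itself check them. With normexp background correction the difference was -0.39, and it was -0.65 without the pair of arrays, C3aR-/- replicate 2 and WT replicate 1, that lay farthest apart overall.

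Across all 22741 tested genes limma called 0 genes at an adjusted p of 0.05 (0%), and 1111 genes (4.89%) had an unadjusted p under 0.05. The arrays correlated at 0.981 to 0.995 with each other, and 58.6% to 63.0% of probes were well above background. A first principal component with 43.1% of the variance had C3aR-/- replicate 2 at one end and WT replicate 1 at the other, and values without this pair of end arrays are given where they differ. The 10 renal cortex markers were well above background on all 6 arrays, and 3 of the 6 fat and adrenal markers (Plin1, Cyp11b1 and Cyp11b2) on none. The 6 arrays shared a slide and a scan, and WT replicate 1 and C3aR-/- replicate 3 were in the slide's second row.

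All 7 tested lectin genes read lower in C3aR-/- than in WT renal cortex, by 0.38 to 0.87 on the log2 scale, with a median difference of -0.69. Over all tested genes the median difference was 0.026 and 43.4% of genes had a difference under 0. The C3aR-/- arrays all lay below the WT arrays for 4 of the 7 genes, Clec4n, Clec4a1, Clec4d and Clec4a3, and such separation was found for 4.19% of tested genes in this direction and for 5.65% in the other. A difference of -0.5 or lower was read for 6 of the 7 lectin genes and for 4.28% of all tested genes. These contrasts chose the members, so the counts are not evidence about them. In bulk RNA, fewer cells that carry a lectin and less lectin RNA per cell cannot be told apart.

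**Figure D1:**
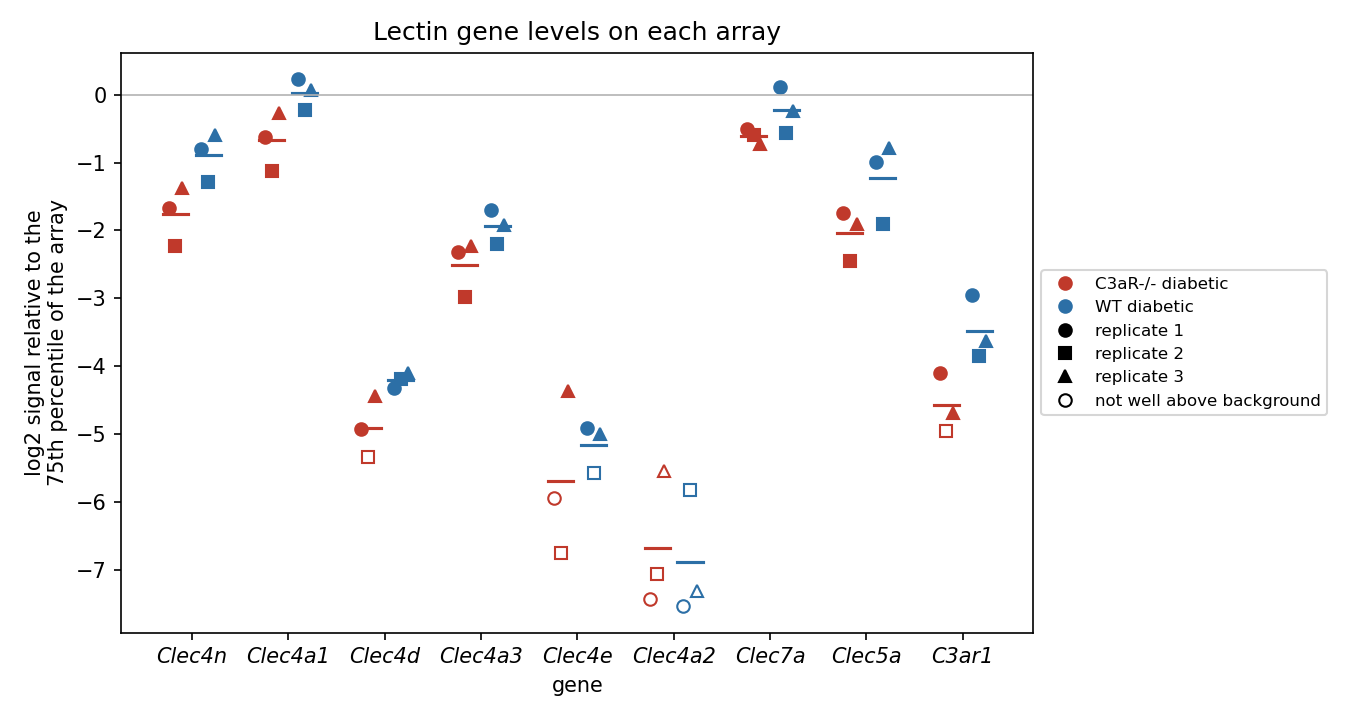
Levels (log2 of the processed signal relative to each array's 75th percentile, y axis) of the 8 lectin genes and C3ar1 on the 3 C3aR-/- (red) and 3 WT (blue) diabetic arrays. Each point is 1 array, open where the probe was not well above background, and each bar is a group mean. The C3aR-/- points all lie below the WT points for Clec4n, Clec4a1, Clec4d, Clec4a3 and C3ar1, and the groups overlap for Clec4e, Clec4a2, Clec7a and Clec5a.

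Clec4n encodes Dectin-2, a receptor for alpha-mannans. Its probe, at chr6 123196969 to 123197028 on mm9, the build in the array's file headers, was well above background on all 6 arrays. Clec4n had levels of -1.68, -2.22 and -1.38 on the C3aR-/- arrays, against -0.80, -1.29 and -0.59 on the WT arrays. The C3aR-/- arrays were all below the WT arrays, with C3aR-/- replicate 3 and WT replicate 2 nearest to each other. The means were -1.76 ± 0.43 in C3aR-/- and -0.89 ± 0.36 in WT (SD, n = 3 each), a difference of -0.87 ± 0.27 (standard error) or a C3aR-/- level 0.547 times that of WT. It was the largest difference among the tested lectin genes in this fit. Leaving out 1 array at a time gave -1.07 to -0.64. With array weights the Clec4n difference was -0.63, smaller in size than that of Clec4d at -0.66.

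Clec4d encodes MCL, which forms a pair with Mincle and binds mycobacterial glycolipids. The Clec4d probe lies at 123224788 to 123224847 on chromosome 6. It gave -4.93, -5.35 and -4.44 on the C3aR-/- arrays, against -4.32, -4.20 and -4.10 on the WT arrays. The C3aR-/- arrays were lower than every WT array, and the WT arrays lay close together. The signal was dim, and it was not well above background on C3aR-/- replicate 2. Clec4d averaged -4.91 ± 0.45 in C3aR-/- and -4.21 ± 0.11 in WT (SD, n = 3 each), a difference of -0.70 ± 0.23. With normexp background correction, another way to model the background, the difference was -0.16, and within the second row of the slide it was -0.12.

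Clec4e encodes Mincle, which senses mycobacterial trehalose dimycolate and the nuclear protein SAP130 released by dead cells. The Clec4e probe, at 123232878 to 123232937 on chromosome 6, was well above background on C3aR-/- replicate 3, WT replicate 1 and WT replicate 3. Its levels were -5.94, -6.76 and -4.36 on the C3aR-/- arrays, against -4.91, -5.58 and -5.00 on the WT arrays. The highest and the lowest of the 6 arrays were both C3aR-/-, so the groups overlapped. The means were -5.69 ± 1.22 in C3aR-/- and -5.16 ± 0.36 in WT (SD, n = 3 each). The difference of -0.53 ± 0.59 was smaller than its standard error, and it turned to 0.0077 without C3aR-/- replicate 2, to 0.052 with normexp and to -1.19 without C3aR-/- replicate 3. No direction was settled for Mincle.

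Clec4a1 belongs to the dendritic cell immunoreceptor group, and its probe lies at 122884578 to 122884637 on chromosome 6. Clec4a1 had levels of -0.62, -1.12 and -0.27 on the C3aR-/- arrays, against 0.23, -0.22 and 0.069 on the WT arrays. C3aR-/- replicate 3 lay just below WT replicate 2, and the groups did not overlap. The means were -0.67 ± 0.43 in C3aR-/- and 0.025 ± 0.23 in WT (SD, n = 3 each), with a difference of -0.69 ± 0.24. Without the pair of end arrays it was -0.37.

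Clec4a3 is a second gene of that group, with its probe at 122919637 to 122919696. Its levels were -2.32, -2.98 and -2.22 on the C3aR-/- arrays, against -1.70, -2.20 and -1.93 on the WT arrays. The groups were separated by a narrow gap between C3aR-/- replicate 3 and WT replicate 2. Clec4a3 averaged -2.51 ± 0.41 in C3aR-/- and -1.94 ± 0.25 in WT (SD, n = 3 each), a difference of -0.57 ± 0.24. It was -0.34 without C3aR-/- replicate 2, -0.33 with normexp and -0.21 without the pair of end arrays.

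Clec4a2 encodes DCIR, the inhibitory receptor of the group. The array held a single probe for it, at 123093890 to 123093949, and this probe was not well above background on any of the 6 arrays. Its recorded levels were -7.43, -7.07 and -5.55 on the C3aR-/- arrays and -7.54, -5.82 and -7.31 on the WT arrays. The groups were interleaved, and no fold is given for a probe below background in both.

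Clec7a encodes Dectin-1, the beta-glucan receptor, and lies further along chromosome 6, with its probe at 129411739 to 129411798. The Clec7a levels were -0.51, -0.60 and -0.73 on the C3aR-/- arrays, against 0.11, -0.56 and -0.24 on the WT arrays. WT replicate 2 read below C3aR-/- replicate 1, so the groups overlapped. The means were -0.61 ± 0.11 in C3aR-/- and -0.23 ± 0.34 in WT (SD, n = 3 each), and the difference of -0.38 ± 0.18 was the smallest of the tested lectin genes. Without WT replicate 1 it was -0.21. A second Clec7a probe, which spans an intron, was well above background on WT replicate 3 alone and gave no usable difference.

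Clec5a encodes MDL-1, which pairs with DAP12 and is a receptor for dengue virus. It lies in another region of chromosome 6, with the tested probe at 40527017 to 40527076. Clec5a had levels of -1.75, -2.45 and -1.90 on the C3aR-/- arrays, against -0.99, -1.90 and -0.79 on the WT arrays. WT replicate 2 read as low as C3aR-/- replicate 3 and below C3aR-/- replicate 1, so the groups overlapped. The means were -2.03 ± 0.37 in C3aR-/- and -1.23 ± 0.59 in WT (SD, n = 3 each), a difference of -0.81 ± 0.33. A second probe, well above background on 2 C3aR-/- and 2 WT arrays, gave -0.36 ± 0.40, and another, well above background on no array, gave no usable level. With the passing probes averaged the Clec5a difference was -0.58, with array weights -0.40 and without the pair of end arrays -0.48.

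**Figure D2:**
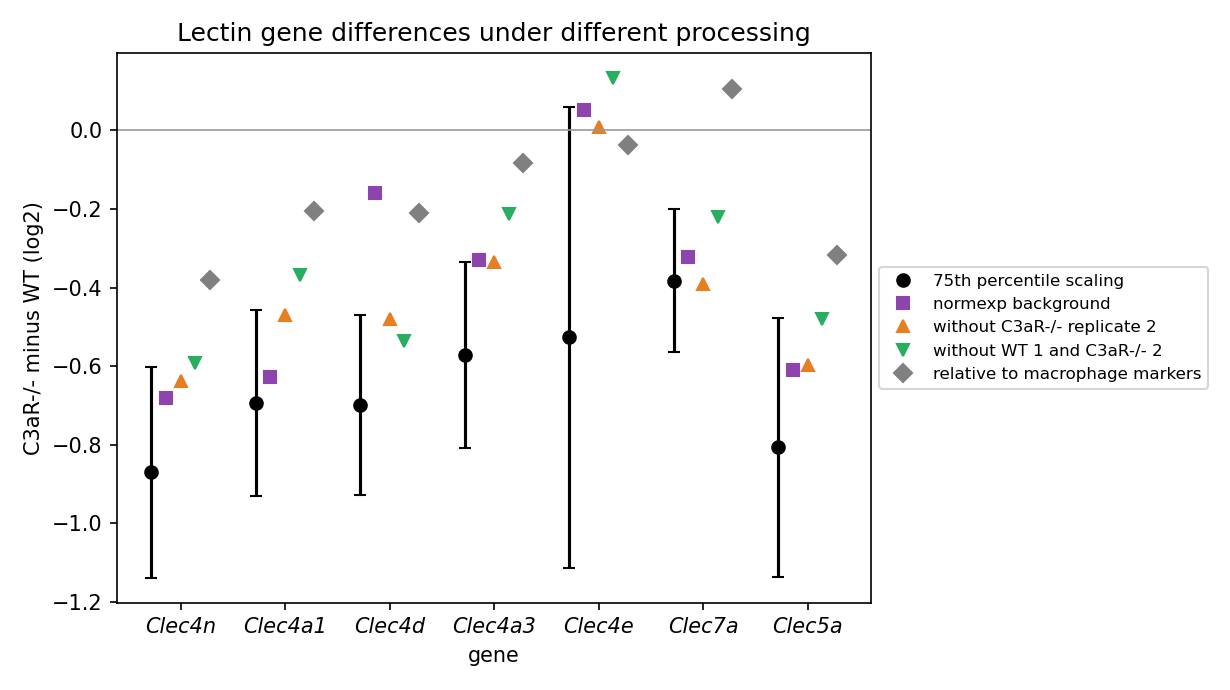
Difference of C3aR-/- minus WT (log2, n = 3 each) of each tested lectin gene with its limma standard error, beside the differences with normexp, without C3aR-/- replicate 2, without that array and WT replicate 1, and relative to the mean of 12 macrophage markers on the same array. The values with standard errors run from -0.87 for Clec4n to -0.38 for Clec7a, and the values relative to the macrophage markers from -0.38 for Clec4n to 0.11 for Clec7a.

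The probes of different lectin genes shared runs of at most 9 of their 60 bases, over 51 pairs of probes. The lectin genes varied in parallel across the 6 arrays. C3aR-/- replicate 2 was the lowest array for 6 of the 7 tested genes, and C3aR-/- replicate 3 for Clec7a. WT replicate 1 was the highest for Clec4a1, Clec4a3 and Clec7a, WT replicate 3 for Clec4n, Clec4d and Clec5a, and C3aR-/- replicate 3 for Clec4e. With each gene centred on its own mean, the 7 genes averaged -0.26, -0.80 and 0.085 on the C3aR-/- arrays, against 0.50, -0.0048 and 0.48 on the WT arrays. C3aR-/- replicate 3 therefore lay slightly above WT replicate 2 in this average. The correlation of a gene with the mean of the other lectin genes over the 6 arrays, which share their scaling and their group difference, was 0.987 for Clec4a1, 0.973 for Clec4n and 0.965 for Clec4a3. It was 0.876 for Clec4d and 0.868 for Clec5a, and lowest for Clec4e at 0.737 and Clec7a at 0.601.

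The median difference of the lectin genes was -0.47 without C3aR-/- replicate 2 and -0.37 without the pair of end arrays. With array weights it was -0.40 and with normexp -0.33. Within the first row of the slide, with 2 arrays a group, the median was -0.79, and within the second row, with 1 array a group, -0.53. Within the first row the differences ran from -1.06 for Clec4e to -0.15 for Clec7a. Within the second row Clec4e read higher in C3aR-/-, at 0.55, and the other genes lower, from -0.91 for Clec5a to -0.12 for Clec4d.

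Genes whose levels ran most like the mean of the lectin genes were ranked by Pearson's r over the 6 arrays, as a description. The ranking took in all tested genes outside the lectins, and the arrays share their scaling and their group difference. A high r over 6 arrays is therefore no evidence of a functional link, and the share of genes with such an r was not counted. The nearest was Syk, the kinase that these receptors recruit, with r = 0.999, levels of -1.19, -1.58 and -0.89 on the C3aR-/- arrays and -0.55, -0.97 and -0.56 on the WT arrays. Each C3aR-/- array was below each WT array except C3aR-/- replicate 3, which read above WT replicate 2. Then came Gmip at 0.998, the exchange factor Rasgrp1 at 0.995, Pglyrp2 at 0.994, the oxidase subunit gene Ncf4 and the T cell gene Cd8b1 at 0.993 each, and Pira7 at 0.992. Pira2, Marveld3 and Slfn8 stood at 0.991. Pira2 and Pira7 are close paralogs, and their probes may read each other's RNA. Marveld3 differed by -0.12 ± 0.092, much less than the lectin genes, so a likeness in pattern did not go with a like size.

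Most of the lectin genes lie beside C3ar1 on chromosome 6, and the distances of their probes from the C3ar1 probe on mm9 were 86.3 kb for Clec4a1, 121 kb for Clec4a3 and 296 kb for Clec4a2. They were 399 kb for Clec4n, 427 kb for Clec4d and 435 kb for Clec4e. Clec7a was 6613 kb away, and Clec5a lay on the other side, at -82271 kb. Of the lectin genes, the nearest to C3ar1, Clec4a1, differed by -0.69. Clec7a differed by -0.38, and the farthest, Clec5a, by -0.81, with -0.36 ± 0.40 for its second probe. A link between distance and difference was not tested.

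The other tested genes within 1 Mb of C3ar1 did not share the lectin genes' direction as a group. Of these 18 genes 10 read lower and 8 higher in C3aR-/-, with a median difference of -0.042, and for 3 of them the C3aR-/- arrays lay below all WT arrays, a separation found for 4.19% of all tested genes. The 5 tested lectin genes in that window had a median of -0.69. The difference between both sets was not tested, since the lectin genes were chosen by this contrast. Klrg1, a receptor of natural killer and T cells at -578 kb, read -1.25 ± 0.37 and was well above background on 1 C3aR-/- and 3 WT arrays. The other 2 separated genes were Apobec1, an RNA-editing enzyme gene, at -0.26 ± 0.13 and Gdf3 at -0.16 ± 0.10. The genes next to C3ar1 on either side, Foxj2 at -3.01 kb and Necap1 at 40.6 kb, differed by -0.068 ± 0.10 and 0.11 ± 0.11.

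Among the remaining neighbours, Slc2a3, a glucose transporter gene, differed by -0.21 ± 0.19, Dppa3 by -0.27, Mfap5 by -0.12 and Nanog by 0.082. M6pr, Phc1 and Gm6637 were within 0.061 of 0, and Mug2 read 0.49 ± 0.27. The unnamed transcripts of the window read from -0.081 to 0.31. Clec4b1, a lectin gene between Clec4a3 and Clec4a2 that is not among the 8, had a difference of -0.38 ± 0.19. The largest negative differences in the window were those of Klrg1, C3ar1 and the 5 lectin genes, and limma called 0 of the window's 18 other genes, of which 1, Klrg1, had an unadjusted p under 0.05. Within 2 Mb 25 of 54 other genes read lower, with a median of 0.046, and within 5 Mb 61 of 142, with a median of 0.042.

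**Figure D3:**
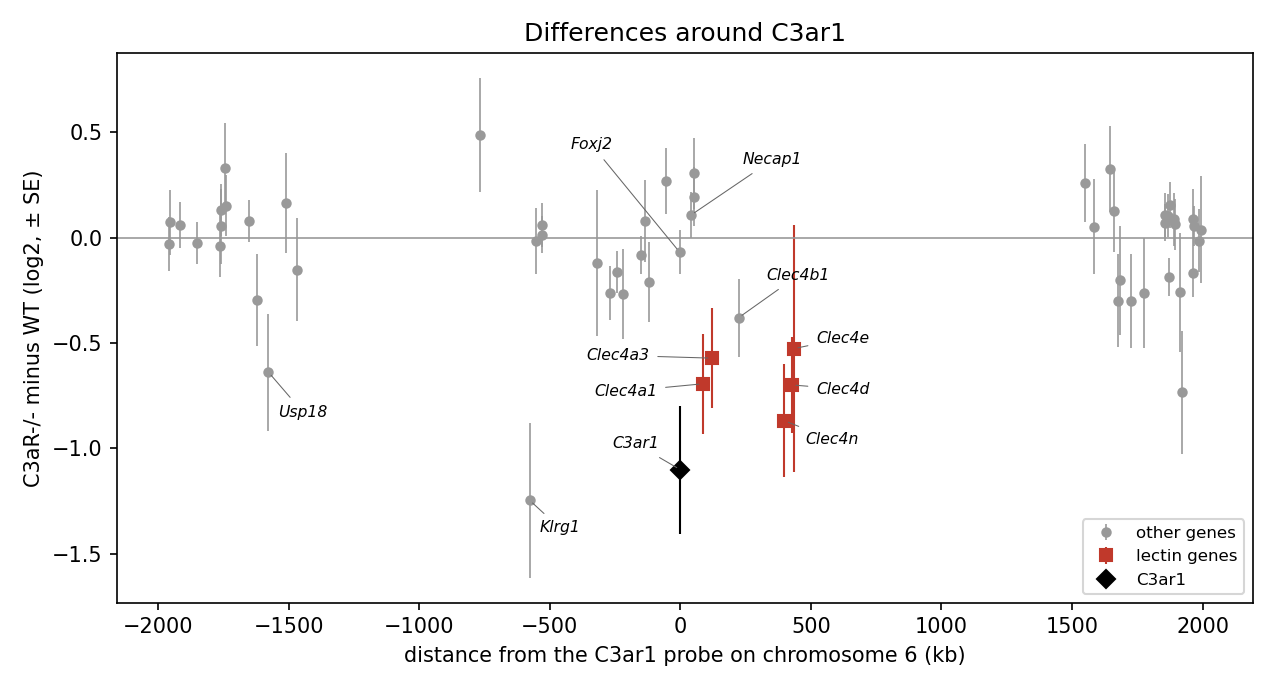
Difference of C3aR-/- minus WT (log2, n = 3 each) of the tested genes around C3ar1 on chromosome 6 against the distance of their probe from the C3ar1 probe (kb), with limma standard errors. The tested lectin genes beside C3ar1 lie between -0.87 and -0.53, and the 18 other genes within 1 Mb lie between -1.25 (Klrg1) and 0.49 (Mug2).

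The adaptor chains and kinases through which these lectins signal mostly read lower in C3aR-/- cortex as well. Of 28 listed genes 26 were tested, and 22 read lower and 4 higher, with a median of -0.20. An unadjusted p under 0.05 in limma was found for 10 lower and 0 higher genes, against 2.68% and 2.21% of all tested genes, and limma called 0 of them at an adjusted p of 0.05. Without the pair of end arrays 17 of the 26 read lower. The list was written with earlier results of these arrays known, so its counts are no independent evidence.

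Fcer1g, the Fc receptor gamma chain that Dectin-2, MCL and Mincle use, had levels of 2.20, 1.73 and 2.20 on the C3aR-/- arrays, against 2.75, 2.25 and 2.70 on the WT arrays. Its C3aR-/- arrays were all below the WT arrays, and the difference was -0.52 ± 0.20. Tyrobp, which encodes the DAP12 chain used by MDL-1, differed by -0.59 ± 0.24, and Syk by -0.53 ± 0.21. The members with the smallest p were Fgr and Btk, both tyrosine kinases of blood cells, at -0.69 ± 0.15 and -0.78 ± 0.23, Vav1, an exchange factor, at -0.58 ± 0.18, and Fcer1g. Their adjusted p in limma was 0.920 for Fgr and 0.931 for the others.

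The genes for the steps below Syk had unequal differences. Card9, the adaptor that carries the signal to NF-kappaB, was not well above background on any array. Its partners Bcl10 and Malt1 differed by -0.060 ± 0.17 and 0.11 ± 0.11. Plcg2 and Prkcd, which act between Syk and Card9, differed by -0.057 ± 0.12 and 0.0058 ± 0.11. Each of these 4 differences was about as small as its standard error or smaller, and which cells express these genes was not measured. Other genes that act below Syk read lower, with Lcp2, an adaptor of blood cells, at -0.75 ± 0.30 and Rel, an NF-kappaB subunit, at -0.39 ± 0.16, beside Vav1 and Btk above.

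Of the 11 genes for inhibitory receptors and the phosphatases and adaptors they recruit, all were tested, and 8 read lower and 3 higher, with a median of -0.25. Dok1 differed by -0.65 ± 0.14 (limma adjusted p 0.920), Cd300a by -0.50 ± 0.18, the lipid phosphatase gene Inpp5d by -0.43 ± 0.18 and Lilrb4a by -0.36 ± 0.17. Dok1 levels were -0.98, -1.14 and -1.05 on the C3aR-/- arrays, against -0.37, -0.65 and -0.22 on the WT arrays, with no overlap. An unadjusted p under 0.05 was found for 2 of the 11, both lower, against 2.68% of all tested genes, and Ptpn11, Pirb and Siglece read slightly higher in C3aR-/-, at 0.063, 0.063 and 0.015.

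Of the 23 genes that signalling from these receptors can induce, 13 were tested, and 11 read lower and 2 higher, with a median of -0.44. The genes Il1a, Il10, Il12b, Il23a, Csf2 and Egr3 were well above background on no array. The smallest p were those of Ccl4, a chemokine, at -0.55 ± 0.14, Casp1, the inflammasome protease, at -0.57 ± 0.18, Egr2 at -0.78 ± 0.25 and Nos2 at -0.29 ± 0.10, each with a limma adjusted p of 0.931. Il1b differed by -0.58 ± 0.22 and Tnf by 0.049 ± 0.15. No adjusted p under 0.05 was found, and 6 of the 13 had an unadjusted p under 0.05 in limma, all lower, against 2.68% of all tested genes in that direction and 2.21% in the other. This list too was written with earlier results of these arrays known.

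Of the 14 host ligands and partner receptors, all tested, 10 read lower and 4 higher, with a median of -0.22. The integrin gene Itgb2 differed by -0.64 ± 0.21, Tlr2, a partner of Dectin-1 in cytokine induction, by -0.59 ± 0.23 and Bst2 by -0.81 ± 0.35. Itgam, the alpha chain that pairs with Itgb2, read 0.24 ± 0.11 higher. Sap130, the nuclear protein that Mincle senses, differed by -0.085 ± 0.096, less than its standard error.

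Of 26 other lectin receptor genes 18 were tested, and 12 read lower and 6 higher, with a median of -0.29. Clec9a, which senses dead cells in cross-presenting dendritic cells, had levels of -3.36, -3.61 and -3.22 on the C3aR-/- arrays, against -2.74, -2.88 and -2.31 on the WT arrays, and its difference was -0.75 ± 0.18. Clec12a, an inhibitory myeloid lectin, differed by -0.70 ± 0.20, Cd69 by -0.62 ± 0.23 and Cd72 by -0.51 ± 0.15. Each of these 4 had a limma adjusted p of 0.931. The genes Clec4a4, Clec4b2, Clec4f, Clec4g, Clec12b, Cd209b and Cd207 were well above background on no array. Without C3aR-/- replicate 2, 10 of the 18 read lower.

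Markers of macrophages, monocytes and dendritic cells mostly read lower in the same samples, and those of neutrophils were split between lower and higher. Of the 12 macrophage markers 11 read lower and 1 higher, with a median of -0.57, and their mean level ran from 0.88 to 1.34 on the C3aR-/- arrays, against 1.32 to 1.91 on the WT arrays. The defining enzyme Lyz2 differed by -0.92 ± 0.21 and C1qa by -0.69 ± 0.21, whereas Mertk, a receptor for engulfing dead cells, read 0.35 ± 0.11 higher. Of the 8 monocyte markers all read lower, with a median of -0.47 and mean levels of 0.69 to 0.92 on the C3aR-/- arrays, against 1.07 to 1.53 on the WT arrays. Spn differed by -0.74 ± 0.19 and Cd14 by -0.59 ± 0.24.

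Of 9 dendritic cell markers 8 were tested and 6 read lower, with a median of -0.51 and mean levels of -1.04 to -0.58 on the C3aR-/- arrays, against -0.52 to -0.094 on the WT arrays. Itgax differed by -0.80 ± 0.18 and Ccr7 by -1.13 ± 0.33. Of 12 neutrophil markers 9 were tested, and 4 read lower and 5 higher, with a median of 0.15 and mean levels of -1.75 to -1.64 on the C3aR-/- arrays, against -1.70 to -1.53 on the WT arrays. Among the 5 that read higher, Camp differed by 0.25 ± 0.12 and Mpo by 0.24 ± 0.13. The 4 that read lower were S100a8 at -0.46 ± 0.27, Ly6g at -0.44 ± 0.32, S100a9 at -0.38 ± 0.28 and Mmp8 at -0.28 ± 0.20. Cxcr2 and Ngp were well above background on no array.

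Markers of lymphocytes, which are not the main carriers of these lectins, also read lower. All 7 tested of 9 T cell markers did so, with a median of -1.23 and mean levels of -2.0 to -1.25 on the C3aR-/- arrays, against -0.73 to -0.050 on the WT arrays. Cd6 differed by -1.22 ± 0.21 and Cd2 by -1.46 ± 0.32. Of the 5 tested B cell markers 4 read lower, with Cd79b at -0.66 ± 0.15. Of the 10 renal cortex markers 9 read higher and 1 lower, with a median of 0.25 and mean levels of 4.67 to 4.88 on the C3aR-/- arrays, against 4.19 to 4.69 on the WT arrays. Slc5a2, the glucose transporter of the proximal tubule, differed by 0.57 ± 0.38. Without the pair of end arrays 5 of the 10 read lower. Both tested fat and adrenal markers, Lep and Star, read higher, at 0.12 ± 0.092 and 0.34 ± 0.16. The limma adjusted p of every marker named was 0.920 or 0.931. Without the pair of end arrays 10 of the 12 macrophage markers, 6 of the 8 monocyte markers, all 7 T cell markers and 6 of the 7 lectin genes read lower, Clec4e being the exception among the lectins. The part of these markers in the lectin values was not tested.

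**Figure D4:**
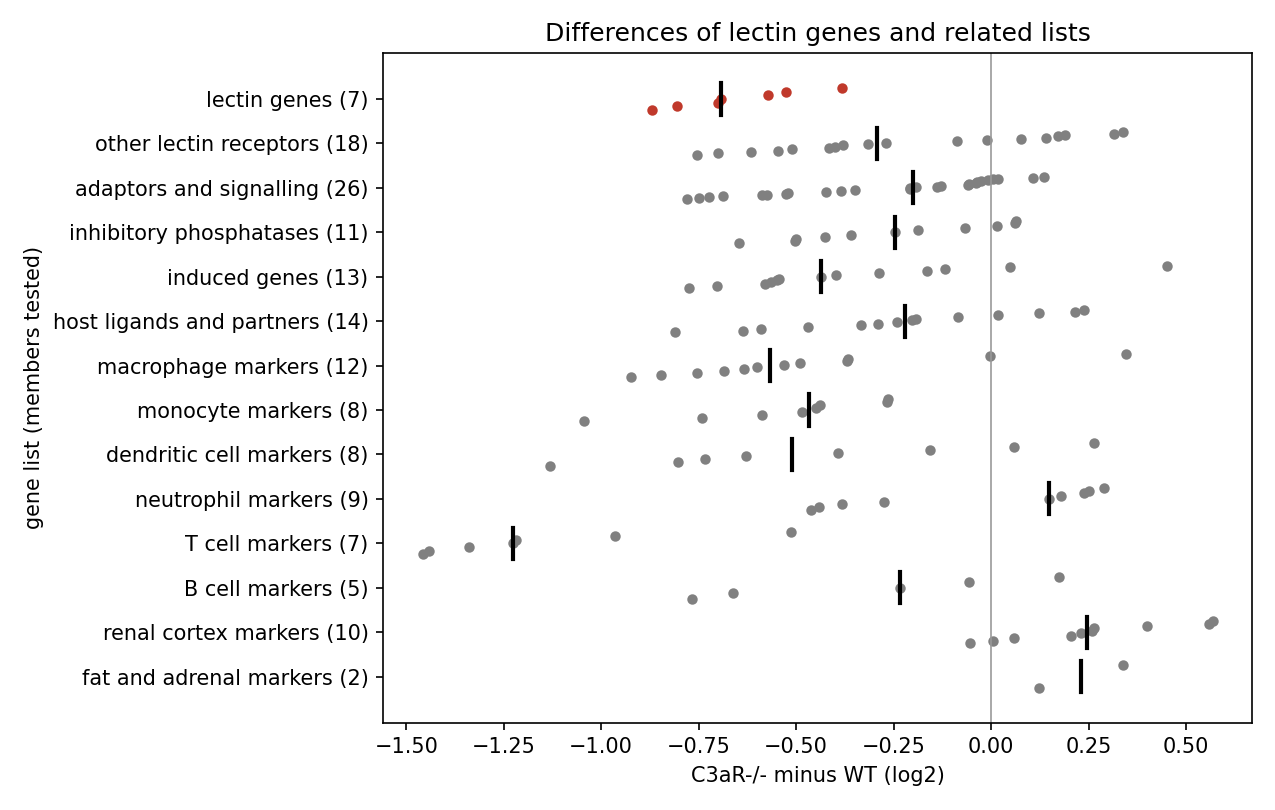
Differences of C3aR-/- minus WT (log2, n = 3 each) of every tested gene in each list, each point 1 gene and each black bar the list's median, with the number tested in brackets. The medians were -0.69 for the lectin genes, -0.57 for macrophage markers, -1.23 for T cell markers, 0.15 for neutrophil markers and 0.25 for renal cortex markers, against 0.026 for all tested genes.

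Relative to the mean of the 12 macrophage markers on the same array, a scale chosen after seeing the data, the lectin differences were closer to 0, with a median of -0.21. On that scale Clec4n levels were -3.02, -3.11 and -2.71 on the C3aR-/- arrays, against -2.71, -2.61 and -2.38 on the WT arrays, a difference of -0.38. C3aR-/- replicate 3 and WT replicate 1 were level on it, and the groups of the other 6 lectin genes overlapped. Clec5a differed by -0.32, Clec4d and Clec4a1 by -0.21 each, Clec4a3 by -0.084 and Clec4e by -0.038. Clec7a read higher in C3aR-/- on that scale, at 0.11. The marker list holds none of the lectin genes, and its median on the array scale, -0.57, stood beside the -0.69 of the lectin genes.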

How the data were processed

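Total RNA of renal cortex was labelled with Cy3 from 0.2 µg per sample, per the labels' protocols. Agilent Feature Extraction 10.7.1.1, per the submitters' processing notes, read 62976 spots per array, and the processed-signal intensity deposited by the authors is background-subtracted per the file headers. The authors' deposited table of log2 values has near-identical value distributions in its columns (sorted columns differ by at most 0.000865, median 5.73); the method behind it was not given in the sources used here, and the table served as an alternative. Coordinates on mm9 are those of the file headers.

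From these files, spots of 1 probe were averaged, and log2 of the signal was set against each array's 75th percentile. Of 56599 probes used (6 were left out for outlier flags, and none was saturated), 34778 were well above background on at least 3 of 6 arrays, and per gene the probe with the highest mean was kept, giving 22741 genes. Symbols came through RefSeq accessions for 32992 probes, and the files' own names were kept for 23607. limma 3.58.1 in R 4.3.3 fitted the groups, taken from the sample titles, with Benjamini-Hochberg adjustment over all genes and a threshold of 0.05. The number of arrays, 3 a group, limits the precision. Scripts were tested on simulated data.

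The members and all gene lists were chosen with earlier results of these data known. The text names the 8 lectin genes with every probe, C3ar1, every tested gene within 1 Mb of it, per list the 4 tested members of smallest p (2 in cell type lists), and the 10 genes most like the mean of the lectin genes. Genes named beyond that rule (such as Tyrobp, Bcl10, Malt1, Plcg2, Prkcd, Lcp2, Rel, Ptpn11, Pirb, Siglece, Il1b, Tnf and Sap130) were named for their role or after their values were seen. One marker that the rule would name is not reported here. Alternatives covered scaling, background correction, the authors' table, filters, the probe per gene, the variance model, array weights, blocks by replicate number and slide row, and arrays left out. Protein motifs were not analysed here.

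The replicate numbers of the titles were checked for pairing: arrays with the same number had deviations from their group means that correlated at 0.125, 0.406 and -0.0929, so the numbers were not taken as pairs. Slide and scan were the same for all arrays.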

Additional observations from a re-analysis of the deposited data

How the results depend on the processing

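limma called 0 genes in each of the 18 alternatives fitted over all genes, and the median of the lectin genes stayed below 0, between -0.89 and -0.21. Leaving out 1 array at a time gave medians of -0.89 to -0.47. The count of genes at an unadjusted p under 0.05, 1111 in the reported fit, was 2115 with array weights, 1742 with slide row as a block and 2025 without WT replicate 1 and C3aR-/- replicate 2. It was 767 to 1523 without 1 array and 1596 with the replicate number as a block, a pairing that shares only a number and changed no call. Clec4e turned to 0.052 with normexp, 0.0077 without C3aR-/- replicate 2, 0.13 without WT replicate 1 and C3aR-/- replicate 2, and 0.55 within the second slide row, and ran from -1.19 to 0.0077 without 1 array. Clec7a turned to 0.11 relative to the macrophage markers, a scale chosen after seeing the data. The median of the other genes within 2 Mb of C3ar1, 0.046, ran from -0.011 (without WT replicate 1) to 0.054 without 1 array, and was -0.014 within the second row and -0.042 in the 1 Mb window. The renal cortex markers that read lower numbered 0 to 5 of 10 across alternatives. The cause of these changes was not tested. Clec4d, Clec4e and C3ar1 lie near background, where signal limits the precision, and Clec4a2 could not be measured.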
